A study of Mus musculus with 6 samples.

Results

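The Shank, Dlgap and Homer families are the main scaffold proteins of the excitatory postsynaptic density, and their 10 genes were followed here in the dorsal striatum of mice with a heterozygous Ash1l allele. The 10 genes were Shank1, Shank2, Shank3, Dlgap1, Dlgap2, Dlgap3, Dlgap4, Homer1, Homer2 and Homer3, chosen by name from a table of 34745 genes, and each had 1 row. The samples were 3 libraries from Ash1l heterozygous mice (Ash1l het) and 3 from wild type mice (WT), all C57BL/6 and aged 1 year. Ash1l encodes a histone methyltransferase, and the labels do not describe the altered allele further. Nothing says that the libraries are from different animals, and the p-values reflect only how far these 6 libraries scatter, which may be technical. A kit that keeps strand was used for the mRNA libraries.

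In the spine head the 3 families form a layered mesh. Dlgap proteins (also called SAPAP or GKAP) bind PSD-95 on one side and, through their C-terminal end, the PDZ domain of Shank on the other. Shank proteins carry a proline-rich stretch that binds the EVH1 domain of Homer, and Homer tetramers reach group I metabotropic glutamate receptors and the IP3 and ryanodine receptors of the calcium store. Shank3 and Dlgap3 are the family members most associated with the striatum, since mice lacking either gene groom excessively and have altered cortico-striatal transmission. A short form of Homer1, induced by neuronal activity, lacks the coiled coil that joins Homer proteins. Gene counts do not separate it from the long forms.

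The link between Dlgap and Shank can be read in the genes themselves. The last 60 coding bases of the 4 Dlgap genes, from the GENCODE M21 transcripts of GRCm38 with the longest reading frame, are shown because they encode the end that Shank binds. All 4 genes lie on the plus strand, and capitals mark the 12 bases that encode the last 4 residues before the stop codon.
Dlgap1: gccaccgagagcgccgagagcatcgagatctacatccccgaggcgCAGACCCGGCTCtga
Dlgap2: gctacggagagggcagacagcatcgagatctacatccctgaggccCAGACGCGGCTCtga
Dlgap3: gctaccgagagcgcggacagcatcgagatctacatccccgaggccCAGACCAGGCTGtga
Dlgap4: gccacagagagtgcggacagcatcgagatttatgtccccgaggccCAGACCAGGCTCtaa
Over these 60 bases any 2 of the 4 genes were identical at 49 to 54 positions, and over the 12 capital bases at 9 to 11. The 4 genes thus end alike, while their RNA levels, given below by library, differed widely.

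Before the scaffold genes, the libraries themselves were examined. They held 14421259 to 18798694 counts in Ash1l het and 12080663 to 17381781 in WT. Ash1l stood at 281, 198 and 253 CPM (counts scaled to library size by TMM) in Ash1l het and at 308, 295 and 293 CPM in WT, so the groups did not overlap, but the gene did not pass edgeR's quasi-likelihood test (log2 fold change -0.29, SE 0.13, adjusted p = 0.858). The labels' protocol describes male mice, whereas Xist was at 1956 to 2957 CPM in the 6 libraries and 4 Y-linked genes together had 1 count in WT replicate 1 and 0 in the other libraries. Markers of spiny projection neurons, the principal cells of the striatum, were abundant in both groups (10 genes, summed 7356 to 9074 CPM in Ash1l het and 7809 to 8917 CPM in WT, lowest in Ash1l het replicate 1). Those of cortical glutamatergic neurons were low (5 genes, summed 13.6 to 85.9 CPM in Ash1l het and 31.6 to 60.4 CPM in WT). Ash1l het replicates 1 and 2 stood apart from the other 4 libraries. On the first principal component they lay at -31.4 and -27.3, against 11.9 for Ash1l het replicate 3 and 4.28 to 25.2 for WT. Their level of Gfap, the intermediate filament of reactive astrocytes, was 412 and 733 CPM, against 104 CPM in Ash1l het replicate 3 and 62.1 to 154 CPM in WT. The fits of the scaffold genes and of their partners were repeated without these 2 libraries.

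None of the 10 scaffold genes passed the test between Ash1l het and WT, while 9 of the 10 had fitted levels below WT. Fitted differences are log2 fold changes or ratios of Ash1l het over WT. The fit covered 15267 genes that passed a low-count filter, the 10 among them, with a threshold of 0.05 on the Benjamini-Hochberg adjusted p. By the same test 0.0131% of all tested genes passed (2 genes, both higher in Ash1l het and neither of them a scaffold gene). The median log2 fold change of the 10 was -0.21, against 0.006 over all tested genes, of which 48.6% were below 0. Without Ash1l het replicates 1 and 2, which leaves 1 Ash1l het library, the median of the 10 was 0.05, against -0.004 over all genes. In that fit 3 of the 10 were below 0. These 2 libraries were singled out from the same data. They held the lowest value of 3 and 5 of the 10 genes, so leaving them out by itself tends to raise the estimates. At an unadjusted edgeR p under 0.05 stood 1 of the 10, Shank3, which was lower, against 5.78% of all tested genes in either direction and 2.67% lower in Ash1l het. In Shank3 and Dlgap2 every Ash1l het library lay below every WT library, a pattern found in 5.53% of all tested genes. The opposite pattern was found in 0 of the 10 and in 6.18% of all tested genes. DESeq2 on the same counts also called 0 of the 10, against 0.256% of all genes (39 genes, 16 of them lower in Ash1l het). By DESeq2 1 of the 10 was at an unadjusted p under 0.05, against 4.92% of all genes, and by limma on log2(FPKM + 0.1) 0 of the 10, against 5.43%. In bulk tissue, fewer cells of a type and less RNA per cell cannot be told apart.

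Among the Shank genes, the level was carried by Shank3. The authors' FPKM values, which divide by gene length, averaged 36.5 ± 9.58 in Ash1l het and 48.5 ± 2.17 in WT for Shank3 (SD, n = 3 each). The averages were 5.16 ± 0.750 in Ash1l het and 5.89 ± 0.460 in WT for Shank1, and 4.16 ± 2.03 in Ash1l het and 5.16 ± 0.716 in WT for Shank2. Shank3 made up 78.4% to 81.2% of the family's summed FPKM in Ash1l het and 80.7% to 82.9% in WT, and the sums are given with those of the Dlgap family.

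Shank3 (ENSMUSG00000022623, GRCm38 chromosome 15, 89499623 to 89560261, plus strand) had the highest RNA level of the Shank genes, and its protein binds Dlgap, Homer and actin regulators. It stood at 306, 464 and 541 CPM in Ash1l het replicates 1, 2 and 3, and at 588, 640 and 566 CPM in WT replicates 1, 2 and 3. The groups did not overlap, and Ash1l het replicate 3 lay just under the lowest WT library while replicate 1 lay far under it. The log2 fold change was -0.45 (SE 0.19, 95% interval -0.88 to -0.02), with an edgeR p of 0.0426 unadjusted and 0.857 adjusted over all genes. By exact permutation (two-sided) p was 0.1, which is the least that 3 against 3 libraries can reach. The estimate was -0.25 ± 0.12 (SE) without Ash1l het replicate 1, and -0.14 ± 0.09 (SE) without both replicates 1 and 2, with edgeR adjusted p-values of 0.857 and 0.948.

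Shank2 (ENSMUSG00000037541, chromosome 7, 144001928 to 144424494, plus strand) encodes a Shank protein also found at synapses of hippocampus and cerebellum. It stood at 33.5, 78.6 and 107 CPM in Ash1l het and at 106, 87.8 and 83.6 CPM in WT. A single library was low: Ash1l het replicate 1 held 36.2% of the mean of the other 5, and Ash1l het replicate 3 was the highest of all 6. The log2 fold change of -0.34 had an SE of 0.40 (95% interval -1.33 to 0.65, edgeR adjusted p = 0.928), and it was 0.01 (SE 0.16) without Ash1l het replicate 1. Leaving out replicate 2 gave -0.39 (SE 0.54), and leaving out replicate 3 gave -0.72 (SE 0.37). Shank1 (ENSMUSG00000038738, chromosome 7, 44310253 to 44360572, plus strand), a Shank of cortical and hippocampal spines in particular, stood at 63.4, 59.7 and 84.0 CPM in Ash1l het and at 75.2, 79.6 and 87.0 CPM in WT. Here Ash1l het replicate 3 lay among the WT libraries and the other Ash1l het libraries below them (log2 ratio -0.22 ± 0.14 SE, edgeR adjusted p = 0.889). It was 0.06 (SE 0.11) without Ash1l het replicates 1 and 2.

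**Figure D1:**
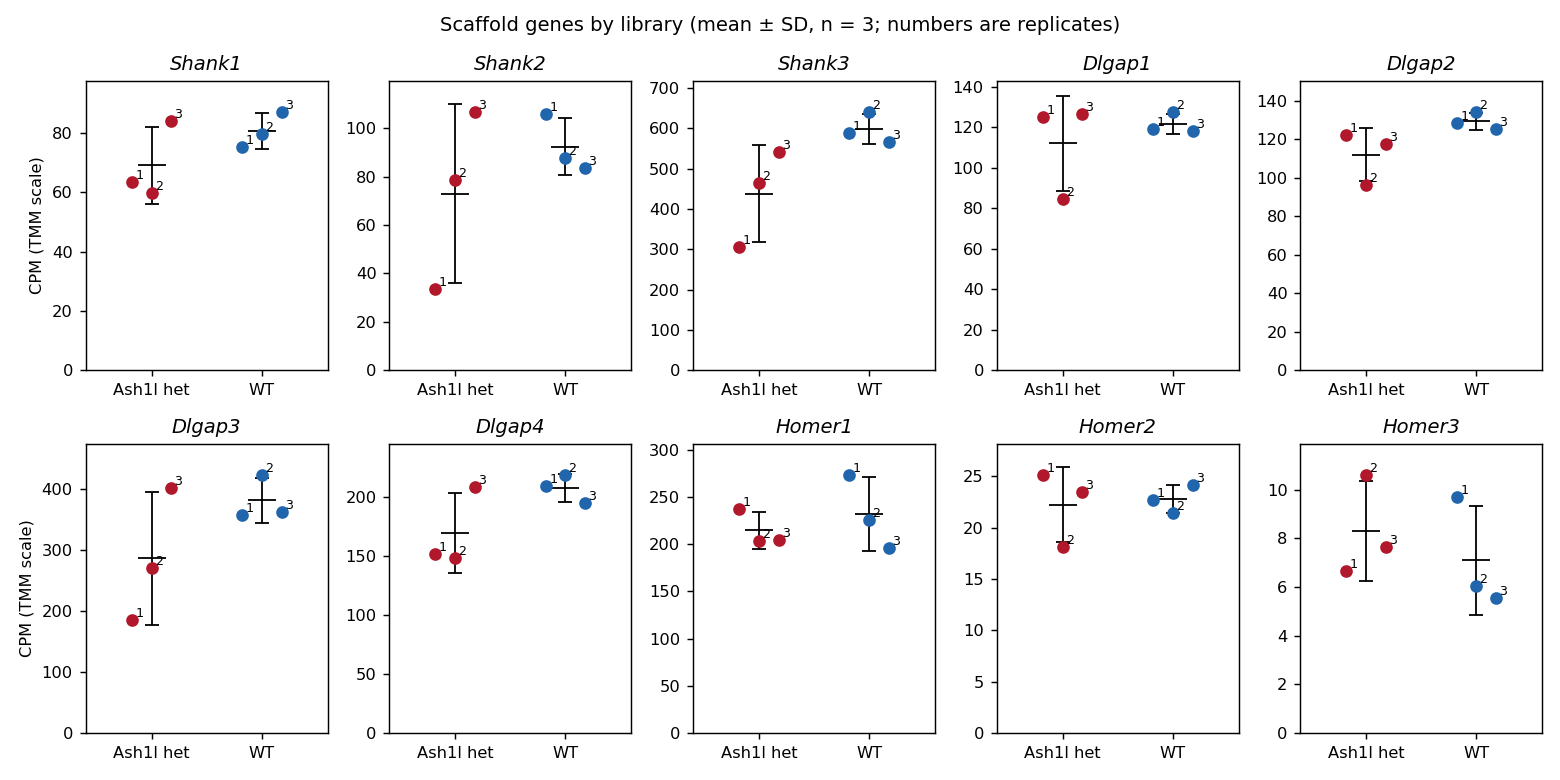
CPM on the TMM scale (y axes from 0) of the 10 scaffold genes in each library, Ash1l het left and WT right, numbered by replicate, with mean and SD (n = 3). Shank2, Shank3 and Dlgap3 are lowest in Ash1l het replicate 1, while Shank1, Dlgap1, Dlgap2, Dlgap4 and Homer2 are lowest in Ash1l het replicate 2, and Homer1 and Homer3 in WT replicate 3. Of all tested genes, 23.4% are lowest in Ash1l het replicate 1, 22.7% in Ash1l het replicate 2 and 13.4% in WT replicate 3.

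The Dlgap family was led by Dlgap3 (ENSMUSG00000042388, chromosome 4, 127169204 to 127237022, plus strand), the Dlgap gene whose loss in mice gives excessive grooming. Its FPKM averaged 47.8 ± 16.8 in Ash1l het and 62.2 ± 4.66 in WT (SD, n = 3 each), the highest of the 10 genes in both groups. In CPM it stood at 185, 271 and 402 in Ash1l het and at 357, 423 and 363 in WT. Ash1l het replicate 3 lay inside the WT range, and replicates 1 and 2 below it. The log2 fold change was -0.41 (SE 0.26, 95% interval -1.02 to 0.19, edgeR adjusted p = 0.889). It was -0.18 (SE 0.17) without Ash1l het replicate 1 and 0.08 (SE 0.11) without replicates 1 and 2. Leaving out replicate 2 alone gave -0.38 (SE 0.35), and replicate 3 alone -0.74 (SE 0.18).

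Dlgap4 (ENSMUSG00000061689, chromosome 2, 156613705 to 156764363, plus strand), a widely expressed member, showed the same division of libraries with smaller distances. It stood at 152, 148 and 209 CPM in Ash1l het and at 209, 219 and 195 CPM in WT (log2 ratio -0.29 ± 0.14 SE, edgeR adjusted p = 0.870). It was 0.01 (SE 0.10) without Ash1l het replicates 1 and 2. Leaving out Ash1l het replicate 1, 2 or 3 alone gave -0.22 (SE 0.15), -0.20 (SE 0.14) and -0.47 (SE 0.10) for Dlgap4. Dlgap2 (ENSMUSG00000047495, chromosome 8, 14095865 to 14847680, plus strand), a neuronal member of the family, stood at 122, 96.6 and 117 CPM in Ash1l het and at 129, 134 and 125 CPM in WT. Here the groups did not overlap and replicate 2 was the lowest library (log2 ratio -0.21 ± 0.11 SE, edgeR adjusted p = 0.878). It was -0.14 (SE 0.09) without Ash1l het replicates 1 and 2. Dlgap1 (ENSMUSG00000003279, chromosome 17, 69969073 to 70821413, plus strand), the member first described as GKAP, stood at 125, 84.8 and 127 CPM in Ash1l het and at 119, 128 and 118 CPM in WT. Ash1l het replicate 2 was low while the other 5 lay between 118 and 128 CPM, and without it the log2 fold change of -0.12 (SE 0.15) was 0.05 (SE 0.09). Without Ash1l het replicate 1 the Dlgap1 estimate was -0.20 (SE 0.16), and without replicate 3 it was -0.22 (SE 0.16).

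The makeup of the Dlgap family differed in Ash1l het replicate 1. Dlgap3 took 53.3% of the family's summed FPKM there, against 66.6% and 69.1% in the other Ash1l het libraries and 65.7% to 68.4% in WT. Dlgap2 took 23.6% in that library, against 15.8% and 13.5% in the other Ash1l het libraries and 14.5% to 15.8% in WT. The summed FPKM was 58.0, 71.8 and 93.5 in Ash1l het and 90.2, 98.8 and 89.4 in WT for the Dlgap family, and 32.1, 50.2 and 55.0 in Ash1l het and 59.98, 61.2 and 57.5 in WT for the Shank family. Ash1l het replicate 1 was the lowest library for both sums.

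**Figure D2:**
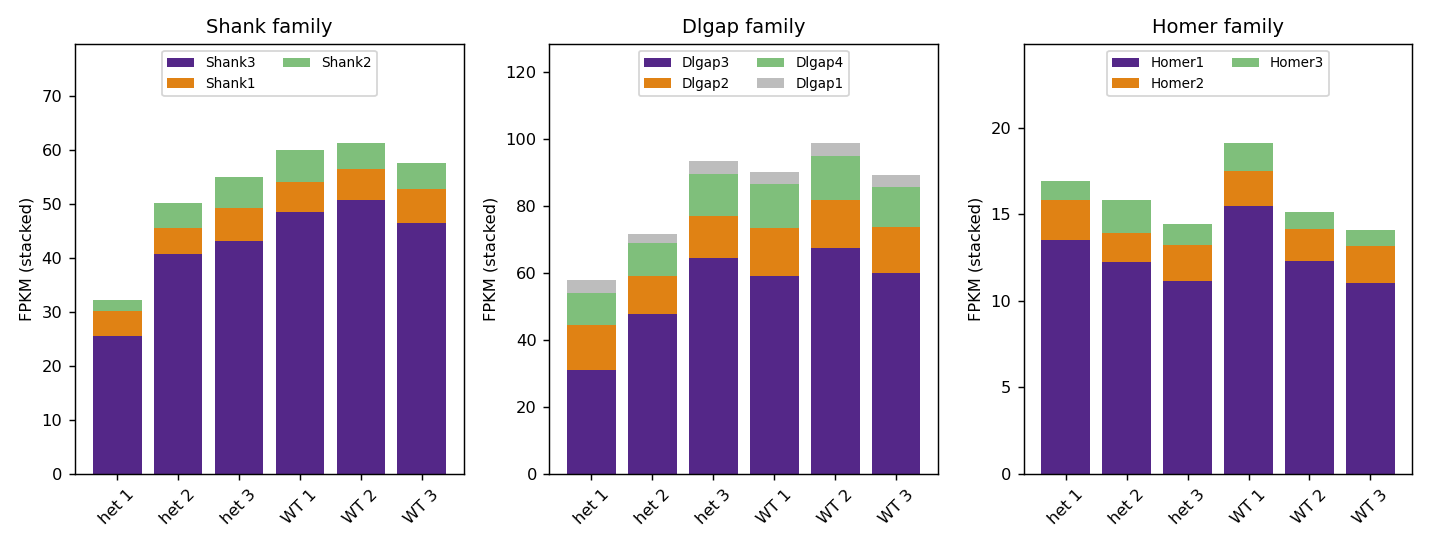
Stacked FPKM (y axes from 0, a scale of its own per family) of the Shank, Dlgap and Homer genes in each library, Ash1l het left and WT right. The Shank sum is 32.1 and the Dlgap sum 58.0 in Ash1l het replicate 1, the lowest bars of both panels, while its Homer sum of 16.9 is exceeded only by WT replicate 1 at 19.1.

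The Homer sum differed least between the groups, with a log2 ratio of mean FPKM sums of -0.03, against -0.38 for Shank and -0.32 for Dlgap, differences between families that were not tested. Without Ash1l het replicate 1 the Shank ratio was -0.18 and the Dlgap ratio -0.17. The Homer ratio was 0.11 without WT replicate 1 and -0.12 without WT replicate 3. The summed FPKM was 16.9, 15.8 and 14.4 in Ash1l het and 19.1, 15.1 and 14.1 in WT. Homer1 (ENSMUSG00000007617, chromosome 13, 93303757 to 93404129, plus strand), which makes both the long scaffold forms and the activity-induced short form, stood at 237, 203 and 204 CPM in Ash1l het and at 274, 226 and 196 CPM in WT. The groups overlapped, and the spread was wider in WT (log2 fold change -0.11, SE 0.14, 95% interval -0.42 to 0.20, edgeR adjusted p = 0.930). Homer2 (ENSMUSG00000025813, chromosome 7, 81600481 to 81706925, minus strand), a long-form Homer with a role in drug-induced plasticity of the striatum, stood at 25.2, 18.1 and 23.5 CPM in Ash1l het and at 22.7, 21.5 and 24.1 CPM in WT. Its log2 fold change was -0.03 (SE 0.15, 95% interval -0.36 to 0.30). Homer3 (ENSMUSG00000003573, chromosome 8, 70282827 to 70294361, plus strand), a Homer best known from cerebellar Purkinje cells, was the scarcest of the 10. Its counts were 98, 163 and 139 in the Ash1l het libraries, against 117, 101 and 96 in those of WT. In CPM it stood at 6.66, 10.6 and 7.64 in Ash1l het and at 9.69, 6.04 and 5.56 CPM in WT. The groups overlapped (log2 ratio 0.24 ± 0.26 SE, edgeR adjusted p = 0.920). Homer3 overlaps Ddx49 on the opposite strand, which had 2118 counts over the 6 libraries against 714 for Homer3. The labels do not state if strand was used in counting, and the Homer3 value is uncertain for that reason. Among the other members, the opposite-strand gene with the most counts was 1700008O03Rik at Shank1, with 123 counts beside 7119 for Shank1.

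Promoters of Shank3 and Homer1 are shown because these genes dominate their families and differ widely in GC content, which the values further on turn to. Each is a window of 300 bases over the RefSeq start on GRCm38.p6. In Shank3 (chr15:89499358-89499657, plus strand) capitals mark each CG. In Homer1 (chr13:93303507-93303806, plus strand) they mark TGACGT, the core of the cAMP response element, searched on both strands.
Shank3: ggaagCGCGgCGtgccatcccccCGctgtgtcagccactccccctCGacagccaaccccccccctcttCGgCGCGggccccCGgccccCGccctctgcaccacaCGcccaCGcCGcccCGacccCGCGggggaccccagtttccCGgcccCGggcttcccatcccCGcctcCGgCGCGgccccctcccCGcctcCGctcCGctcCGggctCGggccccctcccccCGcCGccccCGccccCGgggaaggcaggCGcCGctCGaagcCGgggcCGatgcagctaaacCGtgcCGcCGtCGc
Homer1: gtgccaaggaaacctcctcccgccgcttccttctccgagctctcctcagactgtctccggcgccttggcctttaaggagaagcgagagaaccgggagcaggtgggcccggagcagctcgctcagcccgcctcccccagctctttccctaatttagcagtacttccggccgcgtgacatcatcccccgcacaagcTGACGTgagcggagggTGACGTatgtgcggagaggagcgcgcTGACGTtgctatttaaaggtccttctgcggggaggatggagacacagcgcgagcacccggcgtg
In the Shank3 window CG occurred 40 times, at a GC content of 81.0%, and 3.91% of the 32851 promoters in the table held at least as many. The motif searched in Homer1 was absent from the Shank3 window. It occurred 3 times in the Homer1 window, a number reached by 0.201% of promoters, while 7.51% held at least 1. A second Homer1 window in the table, at a start inside the gene, held none. Windows with more CG than that of Shank3 were those of Dlgap4, with 50, and Homer2, with 49, while a second Homer2 window held 3. The Dlgap3 window held 2 CG at a GC content of 47.7%. It also lies inside its gene, from base 127172630 where the gene starts at 127169204. These matches describe the sequence and are not evidence of binding. Promoters of 7 of the 10 genes were in the table, and Shank1, Shank2 and Dlgap2 were not.

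Levels of the 10 genes could be ordered by FPKM. Averaged over the 6 libraries the order was Dlgap3 (55.0), Shank3 (42.5), Dlgap2 (13.3), Homer1 (12.6), Dlgap4 (11.7), Shank1 (5.52), Shank2 (4.66), Dlgap1 (3.59), Homer2 (2.01) and Homer3 (1.28). Dlgap3 exceeded Shank3, and Shank3 exceeded Dlgap2, in 6 of 6 libraries. Dlgap2, Homer1 and Dlgap4 were not separated: Dlgap2 exceeded Homer1 in 4 of 6 libraries and Homer1 exceeded Dlgap4 in 3 of 6. Shank1 exceeded Shank2 in 4 of 6 libraries. The FPKM values rest on a fixed length per gene that ran from 6024 bases for Dlgap3 to 32442 for Dlgap1, far longer than the longest annotated Dlgap1 transcript of 7173 bases. The excess over the longest transcript was uneven: 17689 against 5713 bases for Homer1, 16097 against 4851 for Dlgap4 and 11149 against 10982 for Homer2. The order and the shares within families therefore depend on these lengths.

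Ash1l het replicate 1, in which 3 of the 10 genes (Shank2, Shank3 and Dlgap3) and 23.4% of all tested genes were lowest, differed from the other libraries in its level of GC-rich transcripts. Genes of at least 20 CPM (7263 genes) were divided into 6 classes by the GC content of their longest transcript. In the class of highest GC content, from 55.9% to 70.7%, the median gene lay -0.23 (log2) from its own mean in Ash1l het replicate 1, -0.07 in replicate 2 and 0.08 in replicate 3. The medians in WT were 0.06, 0.12 and 0.10. In the class of lowest GC content the median was 0.12 in Ash1l het replicate 1 and from -0.06 to 0.02 in the other 5 libraries.

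Shank3, Dlgap3, Shank1 and Dlgap4, in that order, have a GC content of 62.4%, 63.9%, 61.4% and 59.4% and belong to the highest class, whereas Homer1, at 36.9%, belongs to the lowest. In Ash1l het replicate 1, Shank1 at -0.22 and Dlgap4 at -0.30 were near the -0.23 of their class. Shank3 at -0.72 and Dlgap3 at -0.80 were further below it, and 6.28% and 4.05% of the class lay lower still. Shank2, with a GC content of 55.0%, deviated by -1.20 where its class had a median of -0.08, and 0.165% of that class lay lower. With a GC offset per library, an alternative chosen after seeing the data, the fitted difference was -0.29 (SE 0.11) for Shank3, with an edgeR adjusted p of 0.942. It was -0.27 (SE 0.16) for Dlgap3 and -0.18 (SE 0.12) for Dlgap4, and -0.03 (SE 0.13) for Shank1, -0.22 (SE 0.12) for Homer1, -0.29 (SE 0.37) for Shank2 and 0.41 (SE 0.26) for Homer3. Without the offset the values were -0.45 for Shank3, -0.41 for Dlgap3, -0.29 for Dlgap4 and -0.22 for Shank1. For Homer1, Shank2 and Homer3 they were -0.11, -0.34 and 0.24. Homer1 and Homer3 were thus larger in size with the offset, and the other genes named were smaller. The part of base composition in the differences was not tested.

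**Figure D3:**
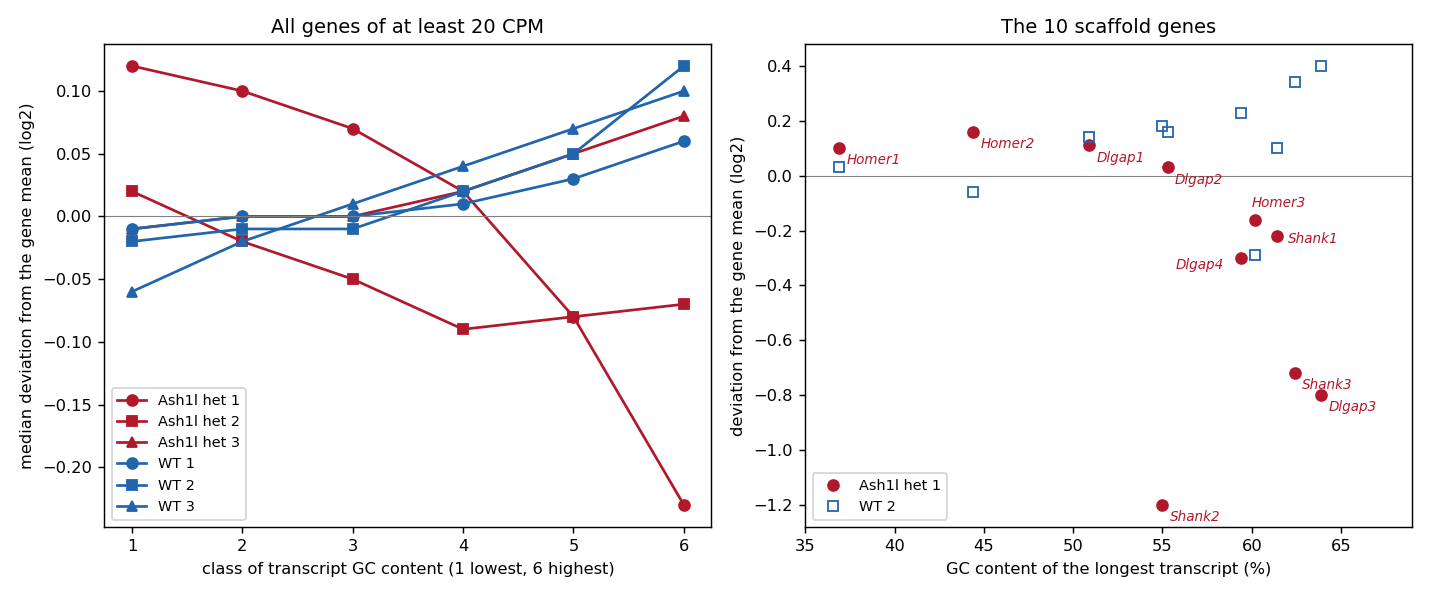
Left, median deviation (log2 CPM minus the gene's mean over 6 libraries) of all genes of at least 20 CPM in 6 classes of transcript GC content, with Ash1l het in red and WT in blue. Right, deviation of the 10 scaffold genes against their GC content in Ash1l het replicate 1 (filled, named) and WT replicate 2 (open). In Ash1l het replicate 1 the median ranges from 0.12 in the lowest class to -0.23 in the highest, and Shank2, Shank3 and Dlgap3 lie lowest.

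**Figure D4:**
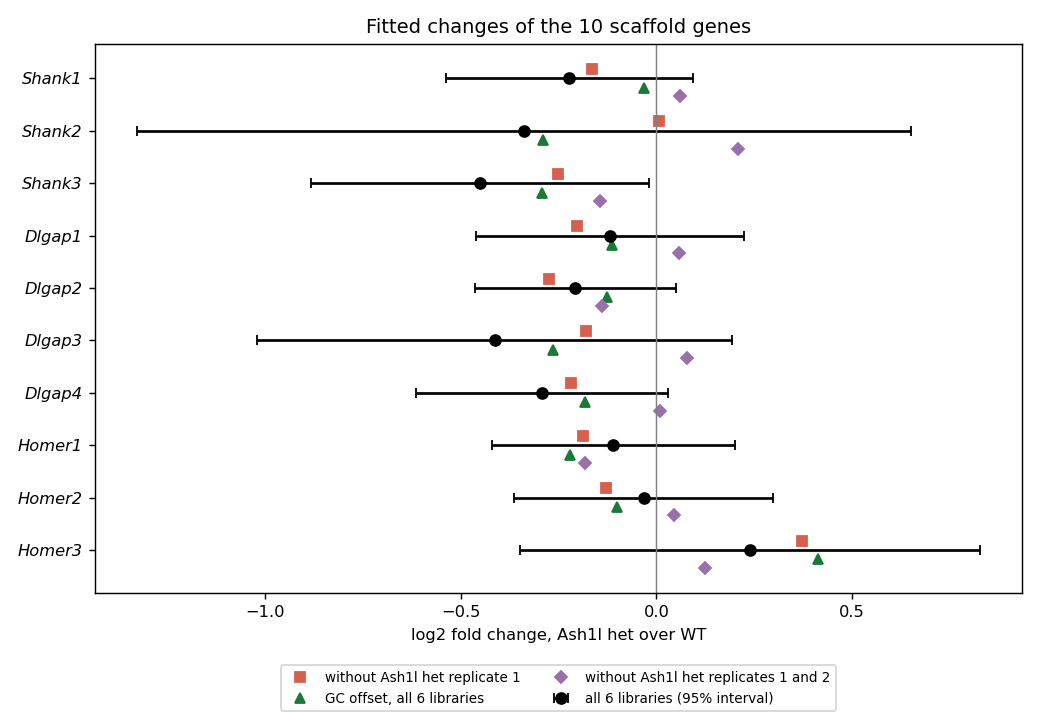
Log2 fold change (Ash1l het over WT) of the 10 scaffold genes with all 6 libraries and its 95% interval, and the estimates without Ash1l het replicate 1, with a GC offset, and without Ash1l het replicates 1 and 2. With all libraries 9 of 10 estimates are below 0, and without Ash1l het replicates 1 and 2 only Shank3, Dlgap2 and Homer1 are.

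Genes with the most similar pattern were sought for the leading gene of each family among genes of at least 5 CPM. The measure was the root mean square difference of the log2 CPM, centred on the mean of the 6 libraries. Nearest to Shank3 were Cbarp (0.046), Fam222a (0.049) and Dact3 (0.057), with a GC content of 63.5%, 62.2% and 66.4%. Cbarp stood at 116, 161 and 194 CPM in Ash1l het and at 208, 220 and 197 CPM in WT. Its sequence of libraries within Ash1l het was that of Shank3, which follows from its choice by this measure. Nearest to Dlgap3 were Rasl10b (0.048), Iglon5 (0.058) and Pgap3 (0.073), with a GC content of 59.0%, 60.2% and 58.2%. Nearest to Homer1 were Fam63a (0.043), Slc37a1 (0.051) and Ankfy1 (0.055), with 51.9%, 53.0% and 46.8%.

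Partners of the scaffolds were read from the same fit, and with all 6 libraries none passed the test in any of 5 lists (46 genes in all, 45 tested). Their counts stand beside 48.6% of all tested genes below 0 and 5.78% at an unadjusted edgeR p under 0.05. Of the 4 PSD-95 family genes, whose products bind Dlgap, all 4 had a log2 fold change below 0 (median -0.05). The leading member Dlg4, which encodes PSD-95 itself, stood at 492, 659 and 710 CPM in Ash1l het and at 671, 763 and 763 CPM in WT (log2 ratio -0.24 ± 0.15 SE, edgeR adjusted p = 0.889). The groups overlapped, and Ash1l het replicate 1 was again the lowest library. The Dlg4 estimate was -0.05 (SE 0.10) without Ash1l het replicates 1 and 2, and all 4 genes of the family were again below 0 (median -0.03). Dlg2, which encodes PSD-93, had a log2 fold change of -0.07 (SE 0.10).

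Of 8 genes for receptors, channels and other proteins that bind Homer, 7 were below 0 (median -0.12), and 2 had an unadjusted edgeR p under 0.05. Ryr1, a ryanodine receptor channel of the calcium store, stood at 83.7, 70.2 and 88.9 CPM in Ash1l het and at 110, 128 and 138 CPM in WT. The groups did not overlap, and Ash1l het replicate 3 was also below every WT library. The edgeR log2 ratio was -0.63 ± 0.13 (SE), with an unadjusted p of 0.000761 and an adjusted p of 0.645. Agap2, a GTPase-activating protein known as PIKE that links Homer to phosphoinositide signalling, had the highest FPKM of the list, at 170 ± 23.4 in Ash1l het and 208 ± 5.65 in WT (SD, n = 3 each), and a log2 ratio of -0.33 ± 0.13 (SE), with an edgeR adjusted p of 0.857. Without Ash1l het replicates 1 and 2 it was -0.10 (SE 0.09) for Agap2 and -0.50 (SE 0.13) for Ryr1, and 7 of the 8 genes were below 0.

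Of 11 genes for proteins that bind Shank or Dlgap, 10 were below 0 (median -0.10), and 2 had an unadjusted edgeR p under 0.05. Lzts3, whose product ProSAPiP1 binds the Shank PDZ domain, stood at 494, 294 and 217 CPM in Ash1l het and at 599, 570 and 548 CPM in WT. For this gene Ash1l het replicate 3 was the lowest library and replicate 1 the highest of the group (log2 ratio -0.77 ± 0.28 SE, edgeR adjusted p = 0.857). Dynll2, a dynein light chain that binds Dlgap, stood at 171, 166 and 224 CPM in Ash1l het and at 254, 284 and 237 CPM in WT (log2 ratio -0.47, SE 0.14, edgeR adjusted p = 0.801). Baiap2, which encodes the Shank partner IRSp53, had the highest FPKM of the list averaged over the 6 libraries. In FPKM Baiap2 averaged 65.8 in Ash1l het and 76.1 in WT, and Lzts3 47.5 in Ash1l het and 78.7 in WT. The log2 fold change of Baiap2 was -0.24 (SE 0.18). Without Ash1l het replicates 1 and 2, 6 of the 11 genes were below 0, and the estimates were 0.08 (SE 0.15) for Baiap2 and -0.20 (SE 0.11) for Dynll2. In that fit Lzts3 had -1.40, with a lone Ash1l het library assumed to vary like the WT libraries. The library kept was the lowest for this gene, at 217 CPM, and the Ash1l het libraries left out stood at 494 and 294 CPM.

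Of 12 other postsynaptic density genes, 8 were below 0 (median -0.21), and 4 had an unadjusted edgeR p under 0.05, of which 3 were lower in Ash1l het. The other was Frmpd4, named after its values were seen, which was higher (0.26, SE 0.11). Kalrn, whose product acts in dendritic spines, had a log2 ratio of -0.37 ± 0.12 (SE) with an edgeR adjusted p of 0.825, and Camk2b, the beta subunit of the kinase CaMKII, one of -0.27 ± 0.11 (SE) with an edgeR adjusted p of 0.857. Camk2a, the alpha subunit, stood at 1135, 1212 and 1591 CPM in Ash1l het and at 1584, 1684 and 1699 CPM in WT, so that Ash1l het replicate 3 reached the WT range. Without Ash1l het replicates 1 and 2, 4 of the 12 were below 0, with -0.32 (SE 0.09) for Kalrn, -0.17 (SE 0.09) for Camk2b and -0.06 (SE 0.09) for Camk2a. Of 10 tested ionotropic glutamate receptor genes 6 were below 0 (median -0.06) and 1 had an unadjusted edgeR p under 0.05. Over the list of 11 the summed level was 2652 to 2930 CPM in Ash1l het and 2816 to 2875 CPM in WT. Within that list Grin2c, an NMDA receptor subunit, had a log2 ratio of -0.34 ± 0.12 (SE), with an edgeR adjusted p of 0.857. The values for Gria2 and Gria1, which encode AMPA receptor subunits, were 0.13 (SE 0.11) and -0.05 (SE 0.11). Without Ash1l het replicates 1 and 2, 2 of the 11 genes then tested were below 0, and Grin2c had -0.17 (SE 0.11).

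The 5 general neuronal markers summed to 4082, 3343 and 4186 CPM in Ash1l het and to 3750, 3807 and 3681 CPM in WT, and Ash1l het replicate 1 was within the range of the other libraries. Singly the 5 went different ways there: Rbfox3 and Tubb3 were lowest, and Snap25 and Syt1 highest, in Ash1l het replicate 1. Spiny projection neuron markers (10 genes) summed to 7356, 7753 and 9074 CPM in Ash1l het and to 8397, 7809 and 8917 CPM in WT. That sum was lowest in Ash1l het replicates 1 and 2. Next came WT replicate 2, where Pde10a was at 984 CPM, against 2016 to 2449 CPM in the other libraries. A log2 fold change below 0 was found in 8 of the 10 and above 0 in 2 (median -0.15), beside 48.6% of all tested genes below 0. Astrocyte markers summed to 4602, 4276 and 2910 CPM in Ash1l het and to 4255, 3481 and 3274 CPM in WT, and oligodendrocyte markers to 6778, 7632 and 5271 CPM in Ash1l het and to 6424, 5072 and 5619 CPM in WT. The oligodendrocyte sum was highest in Ash1l het replicates 1 and 2, the libraries with the lowest Shank and Dlgap sums. So was the astrocyte sum, but without Gfap its other 4 genes summed to 4190, 3543 and 2806 CPM in Ash1l het and to 4102, 3419 and 3190 CPM in WT, so that WT replicate 1 exceeded Ash1l het replicate 2. The 4 red blood cell genes summed to 113, 96.8 and 53.5 CPM in Ash1l het and to 22.9, 33.8 and 21.7 CPM in WT. Microglia markers (4 genes) summed to 213 to 246 CPM in Ash1l het and 230 to 257 CPM in WT, and endothelial markers (4 genes) to 128 to 159 CPM in Ash1l het and 120 to 147 CPM in WT. The part of these cells in the scaffold values was not tested.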

How the data were processed

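RNA-seq of 6 dorsal striatum libraries was analysed. The authors deposited raw counts per gene and FPKM values per gene in the same table. Per the submitters' processing notes the tools were CASAVA, FastQC, HISAT2, StringTie and edgeR with GRCm38. Their roles and settings are not stated there. Each deposited FPKM could be turned back into a gene length, which was whole to within 0.1 base for 99.1% of genes averaging 10 counts or more. Counts in the 6 single-library files matched the table.

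The quasi-likelihood fit of edgeR 4.0.16 in R 4.3.3 was run on the counts (TMM, minimum count 10, robust dispersion, genotype as the only term), with Benjamini-Hochberg adjustment over all tested genes. The procedure was tested on simulated data. Alternatives were DESeq2 1.42.0, limma 3.58.1 on log2(FPKM + 0.1) and log2(FPKM + 1), RLE scaling, other filters, a replicate block and left-out libraries. Partner fits without Ash1l het replicates 1 and 2 and the astrocyte sum without Gfap were chosen after seeing the data. GC content came from the longest GENCODE M21 transcript (99.5% of tested genes), and promoters from RefSeq. Similarity and GC classes used log2(CPM + 0.5). Intervals use the t distribution of the fit.

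The 10 genes and the lists were chosen with earlier results of these data known. Named were the 10 genes and, per list, the 2 smallest unadjusted p-values and the highest FPKM. No molecular identifiers are described, so library depth bears on counting error only.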

Additional observations from a re-analysis of the deposited data

How the results depend on the processing

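The count of scaffold genes called was 0 under every alternative run. The smallest edgeR adjusted p among them was 0.211, for Dlgap4 without Ash1l het replicate 3, a fit in which 4 had an unadjusted p under 0.05. Over all genes 1691 were under 0.05 in that fit, against 882 with all 6 libraries. Over all genes, 2 calls became 39 with DESeq2 and 50 without Ash1l het replicates 1 and 2, where the remaining Ash1l het library is assumed to vary like the WT libraries. Leaving out a single library gave 1 to 13 calls: 9, 7 and 13 without Ash1l het replicate 1, 2 or 3, and 7, 4 and 1 without WT replicate 1, 2 or 3. With the replicate block the count was 3, and 0 scaffold genes were called. No pairing by replicate number was seen: correlations of same-numbered deviations from the group means were 0.049, -0.075 and 0.012. Between libraries of unlike numbers they ran from -0.126 to 0.122. Other ways in which the libraries may be related were not tested.

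Of 160 refitted fold changes of the 10 genes, 149 kept their direction. Without Ash1l het replicates 1 and 2 the log2 fold change changed sign for Shank1 (0.059), Shank2 (0.21), Dlgap1 (0.057), Dlgap3 (0.078), Dlgap4 (0.0083) and Homer2 (0.044). With single libraries left out the ranges were -0.72 to 0.0054 for Shank2, -0.22 to 0.046 for Dlgap1, -0.22 to 0.023 for Homer1 and -0.13 to 0.093 for Homer2. Shank3 kept its sign, from -0.64 to -0.25, as did Dlgap3, from -0.74 to -0.18, and Dlgap4, from -0.47 to -0.20. The cause was not tested. Depth limits Homer3 most, at 96 to 163 counts per library.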
